A study of Mus musculus with 3 samples.

Results

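The liver lobule was examined within a single single-cell library of primary hepatocytes, the normal diet library (ND), by ordering its cells along a score built from 8 genes of known lobular position. Of 5755 cell barcodes in that library, 1441 (25.0%) had at least 500 detected genes and at most 50% of their counts from mitochondrially encoded genes, and these cells entered the ordering; the series as a whole held 4732 such cells among 16918 barcodes in 3 libraries. For each cell, the natural log of 1 plus the count per 10000 was summed over Cyp2e1, Oat, Rgn and Cyp2c50, which mark hepatocytes near the central vein, and the same sum over Cyp2f2, Sds, Hal and Ass1, which mark hepatocytes near the portal tract, was subtracted. The cells of the highest 30% of scores (432 high-score cells) were set against those of the lowest 30% (432 low-score cells), with 577 middle cells between them. The ends were therefore chosen by measured expression, so the 8 ordering genes are left out of every result and out of the scaling, and all differences between the ends are descriptions of this library, with no test.

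The libraries came from wild-type (WT) mice after 12 weeks of feeding: feed given as the normal diet (ND), a diet labelled 60% HFD (high fat diet), or the latter with 0.25% hyodeoxycholic acid, a bile acid (HFD_HDCA). Each diet was represented by 1 library of hepatocytes freed by collagenase perfusion in a stepwise digestion, so no value has a replicate; the labels give neither the number of mice behind a library nor their sex or age. Kept cells had a median of 1929 unique molecular identifiers (UMIs, counted RNA molecules) and 852 genes in ND, 2460.5 and 1039 in HFD, and 2226 and 995 in HFD_HDCA. Of the kept barcodes 1 was shared between the ND and HFD libraries and none between the other pairs.

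Blood enters the lobule at the portal tract and drains to the central vein, and hepatocytes along that path divide the work of the liver. Those near the portal tract are known for gluconeogenesis, urea synthesis, glutamine breakdown and secretion of plasma proteins. Those near the central vein are known for drug oxidation by cytochromes P450, bile acid synthesis and glutamine synthesis, and the central vein's endothelial cells supply Wnt ligands that keep this programme active through beta-catenin.

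The label of a pericentral and a periportal end held only in part, and the groups are called high-score and low-score cells here. The low-score end ended at a score of -7.16 for its last cell, with -7.15 for the first cell outside. The high-score end ran down to a score of exactly 0, because only 390 cells (27.1%) of this library scored above 0, against 55.3% of kept cells in HFD and 67.5% in HFD_HDCA. Of 54 ND cells with a score of 0, 42 fell inside the high-score end and 12 outside, in file order. Scoring 0 means that both sums were equal, and 25 cells had no UMI of any ordering gene, 17 of them in the high-score end. The median score was 3.77 in high-score cells, -4.30 in middle cells and -8.73 in low-score cells. As the rule requires, the markers used for ordering followed it: Cyp2e1 stood at 4873 and 31.2 CPM in high-score and low-score cells, Oat at 1196 and 10.8 CPM, Cyp2f2 at 520 and 2595 CPM, and Hal at 139 and 873 CPM. CPM, here and below, is counts per 1000000 nuclear-encoded counts outside the ordering genes, summed over the cells named.

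Depth, mitochondrial share and markers of other cell types moved with the score. The median depth was 1381.5 UMIs in high-score cells, 1509 in middle cells and 4092.5 in low-score cells, and the median mitochondrial share of counts was 9.11%, 12.2% and 14.1%. Cells with at least 0.5% of their UMIs in markers of endothelial, Kupffer, bile duct, stellate, other leucocyte or red cells, called other-lineage marker cells below, numbered 91 (6.32% of kept cells): 43 in the high-score end, 48 in the middle and 0 of 432 in the low-score end, which allows a share of up to 0.694% (3 cells of 432, counting error only). That limit does not cover the choice of cells by score. A place in the low-score end requires UMIs of the low-score ordering genes, and 21 of the 91 cells had no UMI of any ordering gene. The 0 is therefore set in part by the rule. Endothelial markers led in 75 of the 91 cells, Kupffer cell markers in 13 and stellate markers in 3. These cells held a median of 2.23% of their UMIs in 12 hepatocyte markers, against 11.7% in the remaining cells, and 30 of them had a score of 0. Summed endothelial markers, with 16 of 16 detected in the high-score end, amounted to 1340 CPM there, 1123 CPM in middle cells and 66.4 CPM in low-score cells. Kupffer cell markers (14 of 14 detected in the high-score end) stood at 505, 391 and 163 CPM, and stellate and fibroblast markers (8 of 11) at 128, 95.3 and 3.39 CPM. Of the 240 Kupffer marker UMIs in low-score cells, 238 were of Slc40a1, and the other Kupffer markers were thus almost absent from the low-score end. Over all cells Slc40a1 differed little between the groups at 168, 202 and 161 CPM, a log2 ratio of 0.06 between the ends. It had 129 counts in the 91 other-lineage marker cells. With the ends chosen again without those cells, as described below, it had 81 counts in high-score and 227 in low-score cells, a log2 ratio of -0.69. Of 8 bile duct markers only Sox9, which was highest in the low-score end, had more than 2 UMIs, and the defining Krt19, Krt7 and Epcam were at 0 in all 3 groups. Ratios below are over all cells. A value without the other-lineage marker cells, a comparison added after the data were seen, is given for genes that were high in those cells and for list counts of 2-fold genes that it changed. For it the ends were chosen again as 30% of the remaining cells, 405 cells an end. That high-score end reached down to a score of -0.28, so it is not a part of the 432 high-score cells. Barcodes that hold 2 cells were not removed.

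**Figure D1:**
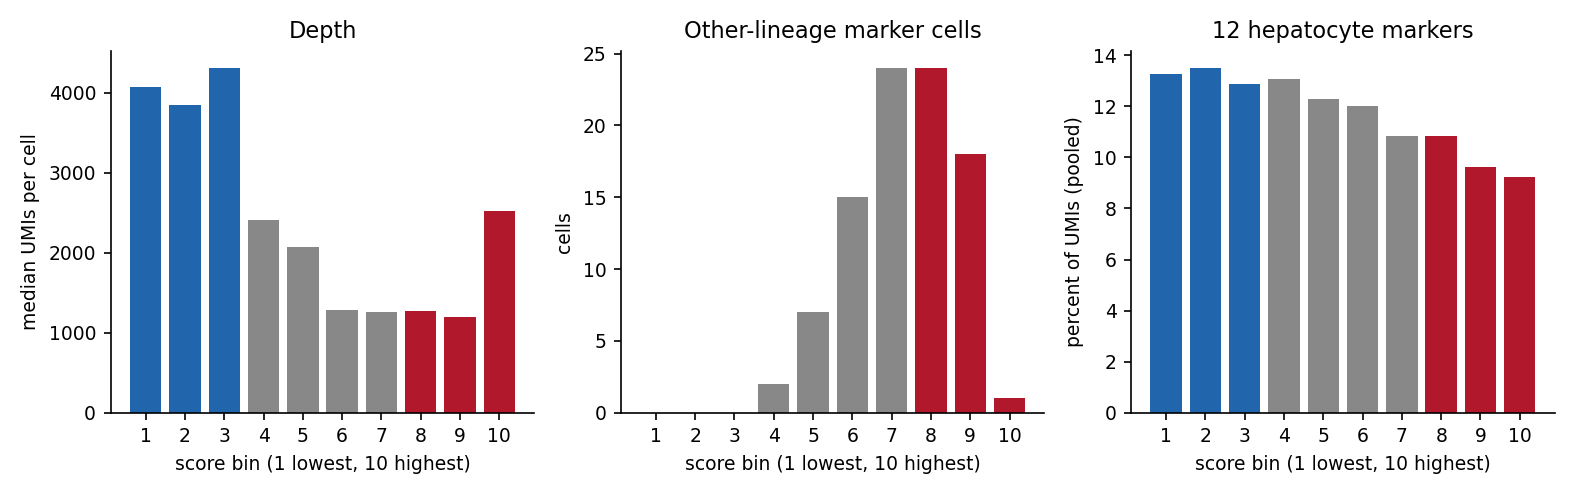
Median UMIs per cell (left), number of other-lineage marker cells (centre) and pooled percent of UMIs in 12 hepatocyte markers (right) in 10 equal bins of the score in the ND library. Blue bars are the low-score end, grey bars the middle cells and red bars the high-score end; depth was highest in the low-score bins, and other-lineage marker cells were most frequent in bins 7 and 8, with 24 cells each, and numbered 1 in bin 10.

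Among 2924 genes with at least 100 counts over both ends, 94 (3.21%) were at least 2-fold higher in high-score cells and 41 (1.4%) at least 2-fold lower. The median log2 ratio of high-score to low-score CPM over all 2924 genes was 0.16, with 0.5 added to each count. The genes that were higher included 12 of 26 measured drug-metabolising cytochromes P450 and their partners, Glul, 4 of 10 major urinary proteins and all 4 measured endothelial markers. Those that were lower included the glutaminase Gls2, the glycine decarboxylase Gldc, the steroid dehydrogenase Hsd17b6 and the plasma proteins Alb and Hpx. Of the 94 and 41 genes, 50 and 22 were on any of the gene lists used. Without the other-lineage marker cells the counts were 85 of 2766 genes (3.07%) higher and 38 (1.37%) lower. Of the 94 genes, 83 kept a ratio of at least 2 without those cells, as did 36 of the 41, when no count minimum was applied again. With the minimum of 100 counts applied again, 77 of the 94 and 35 of the 41 did. With ends chosen within 5 groups of cells formed by depth, the median depths were 1844 and 2119 UMIs, and 63 genes were higher and 22 lower. In those ends 60 of the 94 and 22 of the 41 stayed past 2-fold, with no count minimum applied again. Gldc and Alb were then under 2-fold. Intervals given with a value are exact 95% intervals and cover counting error only, not the spread between mice.

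Genes that were high in the other-lineage marker cells held 7 of the 15 highest ratios. Ptprb, a phosphatase of endothelial cells, had 158 CPM in high-score and 0.678 CPM in low-score cells (log2 ratio 7.28). With the ends chosen again without the other-lineage marker cells it had 3 and 1 counts. Tmsb4x, an actin-binding peptide abundant outside hepatocytes, had a log2 ratio of 7.07, and without those cells 27 and 4 counts, a log2 ratio of 3.40 (2.03 to 5.52). Igfbp7 (7.03) had 4 and 1 counts in those newly chosen ends, and Fcgr2b (5.88), an Fc receptor of sinusoidal endothelium, had 4 and 2. The mannose receptor Mrc1 (5.80) had 1 and 3 counts there, Ehd3 (5.64) 2 and 4, and the nuclease Dnase1l3 (4.09) 1 and 10. All 7 were then under the minimum of 100 counts, and for the 6 other than Tmsb4x the interval of the ratio in those ends included 0. In the 91 other-lineage marker cells these 7 genes stood between 2136 CPM (Dnase1l3) and 6107 CPM (Tmsb4x). Of the 94 genes, 28 (29.8%) were at least 2-fold higher in the other-lineage marker cells than in the other cells. Those cells still held hepatocyte RNA, with Alb at 10069 CPM against 71017 CPM in low-score cells; free RNA and mixed barcodes both give such counts, and their part in the other ratios was not tested.

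**Figure D2:**
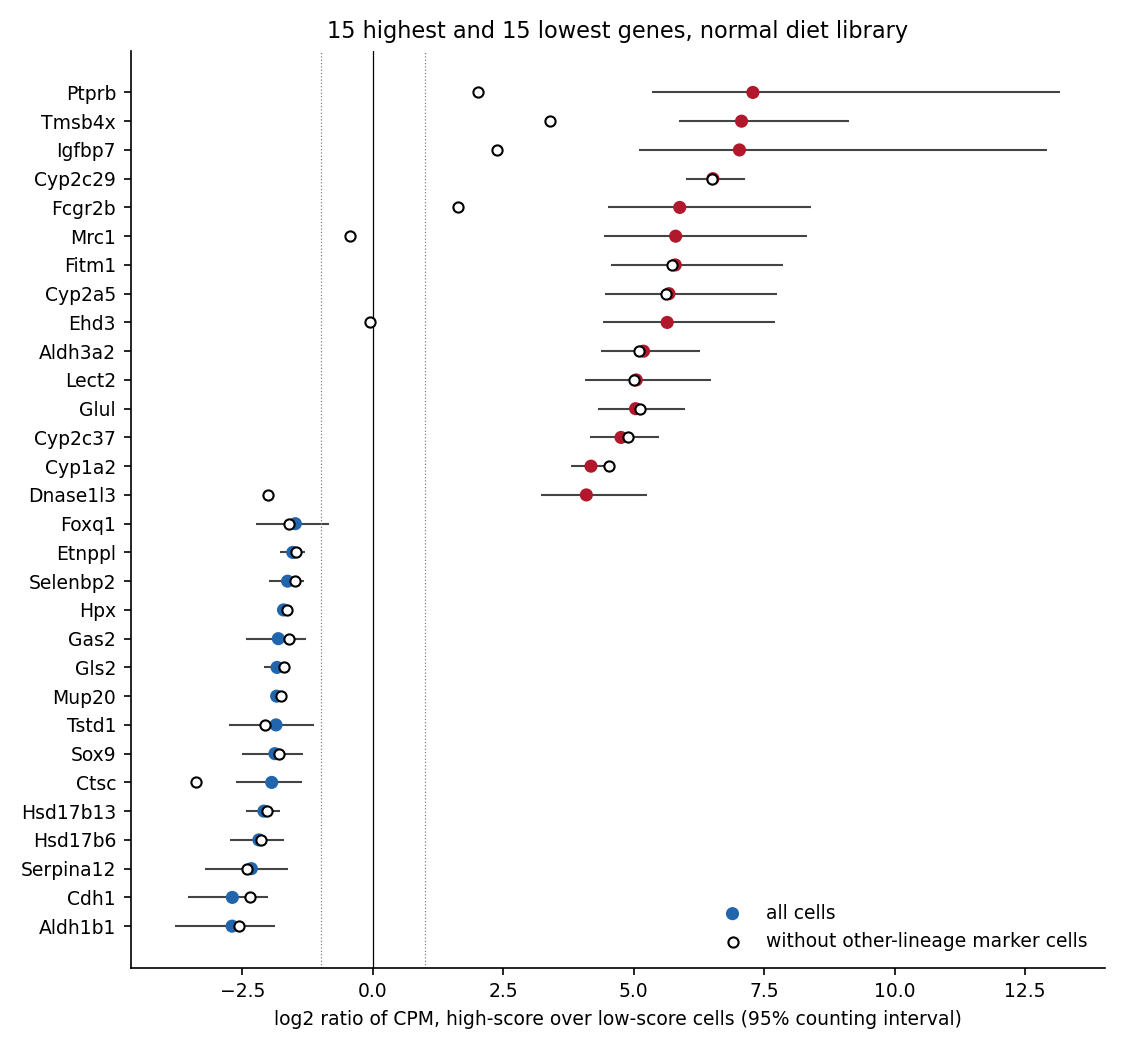
Log2 ratio of CPM in high-score over low-score cells for the 15 genes with the highest and the 15 with the lowest ratio in the ND library. Filled points with lines are the ratio over all cells and its 95% counting interval, open points the ratio without other-lineage marker cells, and dotted lines mark 2-fold; the open points of Ptprb, Tmsb4x, Igfbp7, Fcgr2b, Mrc1, Ehd3 and Dnase1l3 lie far to the left of the filled ones and each rests on fewer than 100 counts over both ends, and that of Ctsc lies at -3.38.

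Cytochromes P450 of the Cyp2c, Cyp2a and Cyp1a families, which oxidise drugs, steroids and fatty acids, supplied 4 of the other 8 genes among the 15 highest ratios: Cyp2c29, Cyp2a5, Cyp2c37 and Cyp1a2. The remaining 4, Fitm1, Aldh3a2, Lect2 and Glul, are described further on. Cyp2c29 stood at 1768 CPM (95% interval 1678 to 1862) in high-score, 110 CPM in middle and 19.0 CPM (12.6 to 27.4) in low-score cells, a 91.6-fold difference. Cyp2c37 had 411, 38.8 and 14.9 CPM, and Cyp2c54 had 495, 187 and 48.1 CPM in the same order. Both lie with Cyp2c29 on chromosome 19, and near-identical copies in this family may share reads, so the values of single members are uncertain. Cyp1a2, which oxidises caffeine and aromatic amines, had 731 CPM (673 to 792) in high-score cells, 18.1-fold its level in low-score cells (interval 30.4 to 51.6 CPM). Cyp2a5, a coumarin hydroxylase, had 155 CPM against 2.71 CPM. Of 26 measured genes on a list of 40 drug-metabolising cytochromes P450 and their partners, 12 were at least 2-fold higher and 1 lower, with a median log2 ratio of 0.80 against 0.16 over all genes. The shares over all genes were 3.21% higher and 1.4% lower. The lower member was Cyp2u1 (83.8 and 201 CPM). Por, the reductase that passes electrons to all microsomal cytochromes P450, was among the higher ones at 121 and 48.1 CPM.

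The promoters of 3 of these genes and of 2 genes of the opposite end are shown because, among the 15 highest and the 15 lowest ratios, they were the ones that held CAAAGTC. They were chosen after the search and stand for no other gene; Cyp1a2, for one, held CTTTGA and TATAAA but not CAAAGTC. Each sequence is the 250 bases before the RefSeq start site in GRCm38.p6, read along the gene's own strand: Cyp2c29 at chr19:39286835-39287084 (+), Cyp2c37 at chr19:39992174-39992423 (+), Cyp2a5 at chr7:26835089-26835338 (+), Hpx at chr7:105600117-105600366 (-) and Hsd17b13 at chr5:103977389-103977638 (-). Capitals mark matches on either strand to TATAAA (the core of a box near many start sites), CTTTGA (the core bound by TCF/LEF factors, through which beta-catenin acts) and CAAAGTC (a core of sites for the hepatocyte factor HNF4A); a match on the other strand is shown as its reverse complement. CTTTGA and CAAAGTC share letters where they overlap, as in Hpx and Hsd17b13.
Cyp2c29: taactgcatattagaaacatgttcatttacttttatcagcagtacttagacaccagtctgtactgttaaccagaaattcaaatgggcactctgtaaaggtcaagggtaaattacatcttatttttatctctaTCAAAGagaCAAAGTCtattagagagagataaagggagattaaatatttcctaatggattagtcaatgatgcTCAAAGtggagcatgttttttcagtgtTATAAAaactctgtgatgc
Cyp2c37: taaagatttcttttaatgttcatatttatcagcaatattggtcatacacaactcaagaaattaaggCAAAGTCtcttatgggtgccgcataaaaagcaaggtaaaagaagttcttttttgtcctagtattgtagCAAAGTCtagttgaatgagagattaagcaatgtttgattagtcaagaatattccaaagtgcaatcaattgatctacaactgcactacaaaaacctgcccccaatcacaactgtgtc
Cyp2a5: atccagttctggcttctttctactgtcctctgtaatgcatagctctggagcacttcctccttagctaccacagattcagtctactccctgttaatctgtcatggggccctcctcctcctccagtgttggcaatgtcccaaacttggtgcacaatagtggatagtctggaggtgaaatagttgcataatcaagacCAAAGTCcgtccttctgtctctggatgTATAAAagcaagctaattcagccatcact
Hpx: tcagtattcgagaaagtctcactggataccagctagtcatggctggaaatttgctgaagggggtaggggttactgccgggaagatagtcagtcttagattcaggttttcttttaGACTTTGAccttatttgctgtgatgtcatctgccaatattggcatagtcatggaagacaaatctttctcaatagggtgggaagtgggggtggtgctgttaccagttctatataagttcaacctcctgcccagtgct
Hsd17b13: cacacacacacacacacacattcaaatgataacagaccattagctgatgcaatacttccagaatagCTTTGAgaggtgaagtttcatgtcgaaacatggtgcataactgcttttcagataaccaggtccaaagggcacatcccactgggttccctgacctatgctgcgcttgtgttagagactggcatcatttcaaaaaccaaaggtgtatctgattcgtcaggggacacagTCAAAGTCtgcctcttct
CAAAGTC lies 109 to 103 bases before the start of Cyp2c29, at 184 to 178 and 116 to 110 bases in Cyp2c37, and at 56 to 50 bases in Cyp2a5. Among the 15 genes with the highest ratios, 13 had a promoter in the RefSeq table, of which 3 held CAAAGTC, 5 CTTTGA and 3 TATAAA. Among the 15 lowest, 10 matched, of which 2 held CAAAGTC, 5 CTTTGA and 2 TATAAA. Of all 27025 genes with a promoter of this length in the table, 4.33% held CAAAGTC, 15.8% CTTTGA and 14.3% TATAAA; per promoter, over 32851, the shares were 3.84%, 13.8% and 12.4%. The promoter of Glul held none of the 3 motifs in this window.

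Glul, glutamine synthetase, which fixes the ammonia that escapes the urea cycle, was concentrated in the outermost bin. It had 322 CPM (284 to 363) in high-score, 21.9 CPM in middle and 9.49 CPM (5.19 to 15.9) in low-score cells, 32.8-fold. Within the high-score end it stood at 45.2 CPM in bin 8, 76.7 CPM in bin 9 and 668 CPM in bin 10 of the 10 equal score bins, so that 234 of its 261 counts in that end lay in the 144 cells of the highest scores. Slc1a2, a glutamate transporter of the same cells, had 55 counts in the high-score end and 0 in the low-score end, which makes it at least 33.3-fold higher against a floor of 3 counts over the low-score end; its CPM was 3.77 in bin 8 and 145 in bin 10. Lhpp, a histidine phosphatase found with Glul, had 17 and 0 counts (at least 10.3-fold higher), and Rhbg, an ammonia transporter, 3 and 1 counts (log2 ratio 2.08, interval -1.19 to 8.16). By the likeness of their profiles over the 10 bins, the genes closest to Glul were Cyp2c37 (Pearson's r 0.997), Rdh16 (0.994), Cyp2a5 (0.990), Mup17 (0.990) and Chp1 (0.986), where the 10 points come from 1 library and differ in depth.

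Targets of Wnt and beta-catenin signalling were few in number of counts. Tbx3, a transcription factor, had 50 counts in high-score and 0 in low-score cells (at least 30.3-fold higher). Axin2, the feedback scaffold often used to read the pathway, had 8 and 0 counts (at least 4.85-fold higher), and Lgr5, the R-spondin receptor of pericentral cells, 8 and 1 (log2 ratio 3.37, interval 0.96 to 9.33). Nkd1, another feedback inhibitor, had 4 and 0 counts (at least 2.42-fold higher), but its CPM was 15.1 in bin 8 and 0 in bin 10, and it stood at 79.8 CPM in the other-lineage marker cells; without them it had 0 counts in both ends. Of 25 genes on the pathway list only 6 reached 100 counts over both ends. Ctnnb1, beta-catenin itself, had 198 and 183 CPM, the coreceptor Lrp6 60.4 and 67.1 CPM, Lgr4 64.1 and 69.1 CPM and Tcf7l2 91.2 and 121 CPM. The entry of the pathway list past 2-fold was Nr1i3 (CAR), the xenobiotic receptor that induces P450 genes, at 116 CPM (93.6 to 142) and 16.3 CPM (10.4 to 24.2). Nr1i3 had also been entered on the periportal landmark list, where it was the single entry 2-fold higher in high-score cells. Its values in this library run against that placement, so it is not read here as a periportal gene.

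Across the list of 43 pericentral landmark genes, collected from knowledge of mouse zonation, 26 were measured; 19 were at least 2-fold higher (20 without the other-lineage marker cells), 0 lower, and the median log2 ratio was 1.52. A further 16 stayed under 100 counts, of which 12 had a higher CPM in the high-score end. Aldh3a2, a fatty aldehyde dehydrogenase, had 283 and 7.45 CPM, Lect2, a secreted chemotactic protein, 168 and 4.74 CPM, and Gulo, the last enzyme of vitamin C synthesis, 249 and 15.6 CPM. Fitm1, which takes part in lipid droplet formation, had 169 and 2.71 CPM. Slco1b2, an uptake transporter for organic anions, had 1946 and 616 CPM, and Csad, which makes taurine for bile acid conjugation, 987 and 178 CPM. Cyp7a1, which starts the classical route from cholesterol to bile acids, had 94 and 3 counts, 3 short of the count minimum, with a log2 ratio of 5.62 (4.24 to 8.14).

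Of 49 genes on the periportal landmark list 46 were measured, and 14 were at least 2-fold lower in high-score cells (13 without the other-lineage marker cells), 1 higher (Nr1i3, whose placement on the list is doubtful as given above), with a median log2 ratio of -0.69. The largest ratios belonged to genes of modest level. Cdh1, E-cadherin, had 20.9 CPM (12.2 to 33.5) in high-score and 139 CPM (120 to 159) in low-score cells. Hsd17b6, a hydroxysteroid dehydrogenase, had 45.6 and 209 CPM, and Hsd17b13, a lipid droplet protein, 107 and 457 CPM. Gls2, the liver glutaminase that releases ammonia from glutamine and so runs opposite to Glul, had 216 CPM (185 to 250) and 771 CPM (727 to 817). Sox9, a transcription factor of periportal hepatocytes and of bile duct cells, had 37.0 and 138 CPM, with the bile duct keratins at 0 as given above. Aldh1b1 (13.6 and 91.5 CPM), Serpina12 (19.7 and 102 CPM) and Ctsc (32.0 and 125 CPM) completed the lowest ratios together with Gas2, Foxq1, Tstd1, Etnppl and Selenbp2, whose log2 ratios lay between -1.85 and -1.48. Ctsc, a lysosomal protease, was at 349 CPM in other-lineage marker cells, and its ratio without them was -3.38.

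Inside the ends the change between bins was unequal. The bins were formed from the same score, so these values too are a description. Of the 41 genes that were lower in the high-score end, 37 were lower in bin 10 than in bin 8, 21 of them at least 2-fold, against 131 (4.48%) of all 2924 genes, and their median log2 ratio of bin 10 to bin 8 was -1.03, against 0.06 over all genes. Between bins 1 and 3 of the low-score end, 1 of these 41 genes differed 2-fold, against 25 (0.855%) of all, and the medians were 0.06 and -0.01. Of the 94 genes that were higher, 69 were also higher in bin 10 than in bin 8, 34 at least 2-fold, against 150 (5.13%) of all genes, and 15 were at least 2-fold lower in bin 10. Of the 77 of them that were measured and at least 2-fold higher without the other-lineage marker cells, 67 were higher in bin 10 than in bin 8, 34 at least 2-fold, and 4 were at least 2-fold lower. Gls2 went from 343 CPM in bin 8 through 327 to 57.1 in bin 10 and stood at 774 CPM in bin 1. Hsd17b13 went from 188 to 28.5 CPM between bins 8 and 10, and Ctsc from 52.7 to 0 CPM. Cyp3a11 differed by less, from 3425 CPM in bin 1 through 3853 in bin 8 to 7880 in bin 10. The 41 lower genes were thus nearly level between bins 1 and 3 and steep between bins 8 and 10. These steps are not over like distances: the median score was -9.76 in bin 1 and -7.71 in bin 3, against 0.65 in bin 8 and 8.87 in bin 10. The 41 genes were also chosen as low in the high-score cells, and the 94 and the 77 as high in them. Bin 10 is a part of those cells, so the excess over all genes is set in part by that choice. The values do not show where in the lobule the change lies. Cyp1a2, in contrast to the 41 lower genes, was not level in the low-score end and went from 16.1 CPM in bin 1 to 59.8 CPM in bin 3. The median depth was 1268 UMIs in bin 8 and 2520 in bin 10, and the part of depth in these slopes was not tested.

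**Figure D3:**
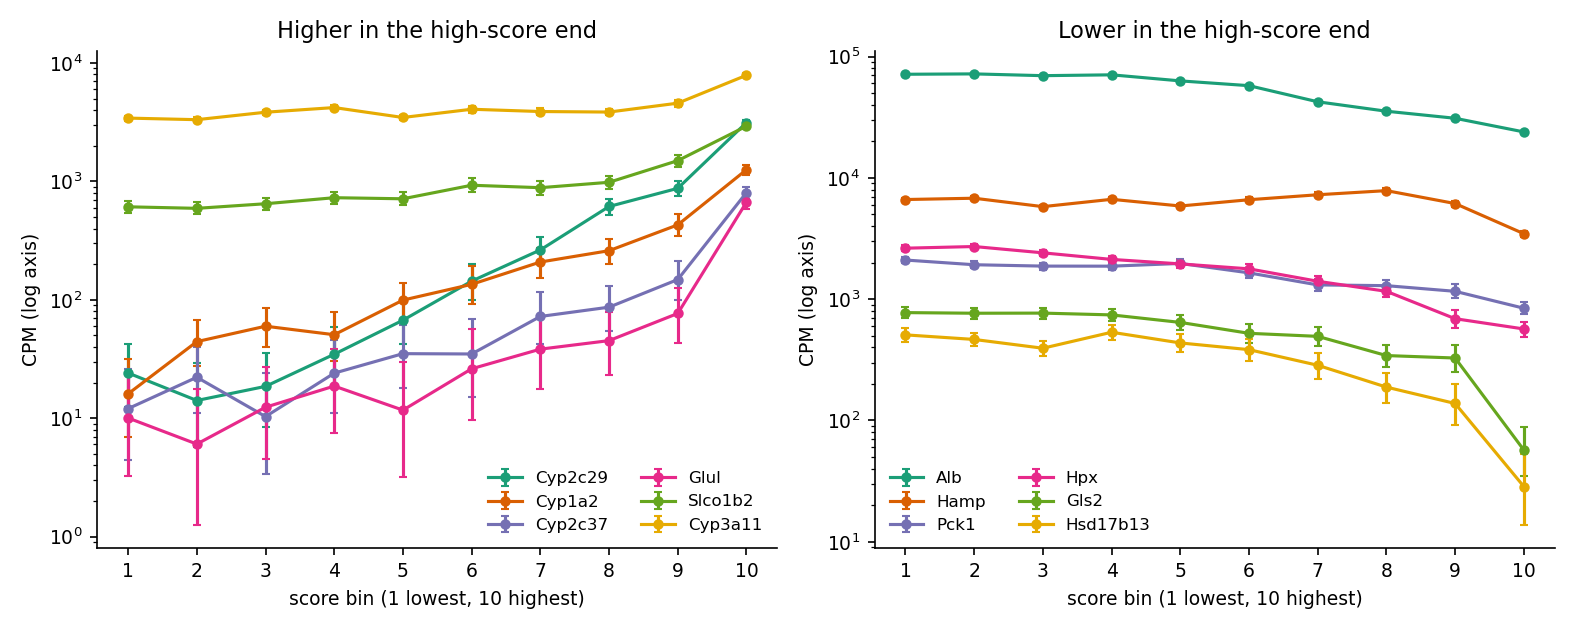
CPM with 95% counting intervals in 10 equal bins of the score in the ND library, on a log axis, for 6 genes that were higher (left) and 6 that were lower (right) in the high-score end. Glul and Cyp2c37 climb most between bins 9 and 10, Gls2 and Hsd17b13 drop most there, and the 6 lines on the right are nearly level over bins 1 to 3.

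The enzymes of the urea cycle, which detoxify ammonia in periportal and midlobular hepatocytes, differed by less than 2-fold apart from Asl. Of 14 measured genes on the urea and ammonia list 2 were at least 2-fold higher in high-score cells (Glul and the glycerol and urea channel Aqp9, 245 and 93.5 CPM) and 2 lower (Gls2 and Asl), with a median log2 ratio of -0.28. Over all 2924 measured genes 3.21% were higher and 1.4% lower, 1909 had a ratio above 0 and the median was 0.16. Cps1, which starts the cycle, had 3278 CPM (3155 to 3405) in high-score and 5034 CPM (4920 to 5150) in low-score cells, Otc 681 and 924 CPM, Arg1 1127 and 1859 CPM and Asl 171 and 360 CPM. With ends chosen within the 5 depth groups the median of this list was -0.04 and the log2 ratio of Asl -0.68. Amino acid breakdown held members on both sides: of 40 measured genes 20 were above and 20 below 0, with a median of 0.02 (25 and 15 without the other-lineage marker cells, median 0.06). Enzymes of taurine and proline metabolism were among the higher ones, Csad and Prodh (102 and 39.3 CPM). The glycine decarboxylase Gldc (118 and 260 CPM) and Etnppl, which breaks down phosphoethanolamine (203 and 589 CPM), were at least 2-fold lower. The histidine pathway enzymes Uroc1 (398 and 703 CPM) and Amdhd1 (202 and 352 CPM) were lower by less. With ends chosen within the depth groups Prodh (log2 ratio 0.82) and Gldc (-0.80) were under 2-fold, and Csad (2.26) and Etnppl (-1.07) stayed past it.

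Glucose output by the liver rests on gluconeogenesis, of which 17 genes were measured. Among them 0 were past 2-fold in either direction, 12 had a ratio below 0, and the median log2 ratio was -0.19. Pck1, the enzyme that commits oxaloacetate to glucose synthesis, had 1066 CPM (996 to 1139) in high-score and 1965 CPM (1894 to 2038) in low-score cells, a log2 ratio of -0.88. Fbp1 had 676 and 1260 CPM, and G6pc, which releases free glucose, 729 and 1106 CPM. With ends of 10% of the cells in place of 30%, the median of the list was -0.70 and the ratio of Pck1 -1.32. Glycolysis and glycogen genes (14 measured, 0 past 2-fold) had a median of 0.00. The profiles most like that of Pck1 over the 10 bins were those of Hsd11b1 (Pearson's r 0.987), Fgb (0.974), Arg1 (0.972), Alb (0.972) and Gc (0.971).

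Plasma proteins were lower in high-score cells by amounts mostly under 2-fold. Over all 2924 measured genes, 1015 had a ratio below 0, 41 (1.4%) were at least 2-fold lower and the median log2 ratio was 0.16. Of 32 measured acute phase and plasma protein genes 26 had a ratio below 0, 4 were past 2-fold and the median log2 ratio was -0.53; of 36 coagulation and complement genes 32 were below 0, 3 were past 2-fold and the median was -0.47; of 22 apolipoprotein genes 18 were below 0, 0 were past 2-fold and the median was -0.36. Alb, albumin, had 29375 CPM in high-score and 71017 CPM in low-score cells. Hpx, the haem carrier hemopexin, had 791 CPM (731 to 854) and 2590 CPM (2508 to 2673). Trf, transferrin, had 4593 and 9265 CPM, C3 636 and 1443 CPM and Cfb 117 and 270 CPM. With ends chosen within depth groups their log2 ratios were under 2-fold, at -0.63, -0.78 and -0.71. Without the other-lineage marker cells 3 acute phase and plasma protein genes and 2 of coagulation and complement were past 2-fold. Genes of endoplasmic reticulum stress, whose chaperones fold secreted proteins, had 13 of 14 measured members below 0 with a median of -0.40, and Hspa5 stood at 575 and 985 CPM. Against these, Fabp1 (17979 and 10898 CPM), which carries fatty acids in the cell, and Apoa2 (20963 and 15943 CPM) were higher in high-score cells, so the 12 hepatocyte markers did not move one way (3 above and 9 below 0). With ends chosen within depth groups, the median of the acute phase list was -0.30 and the log2 ratio of Alb was -0.84 in place of -1.27.

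The major urinary proteins, lipocalins that carry pheromones and are made in large amounts by the mouse liver, divided within 1 gene cluster on chromosome 4. Of 10 measured genes 4 were at least 2-fold higher in high-score cells and 1 lower, against 3.21% and 1.4% of all measured genes. Mup11 had 2781 CPM (2667 to 2898) in high-score and 230 CPM (206 to 256) in low-score cells, and Mup17 had 676 and 79.3 CPM. Mup20, which encodes the male pheromone darcin, had 9894 CPM (9679 to 10113) and 35483 CPM (35180 to 35788), and Mup3 had 11870 and 20640 CPM. The copies are close in sequence and could share reads, so the value of each is uncertain.

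Genes of fatty acid oxidation and of cholesterol synthesis had medians above that of all genes (0.16, with 1909 of 2924 genes above 0 and 3.21% at least 2-fold higher), and lipogenesis did not. Of 28 measured genes of fatty acid oxidation and ketogenesis 5 were at least 2-fold higher (6 without the other-lineage marker cells), 0 lower, 22 were above 0, and the median log2 ratio was 0.44. Acaa1b, a peroxisomal thiolase, had 1742 and 536 CPM. Of 12 measured cholesterol genes 3 were at least 2-fold higher, with a median of 0.37: Hmgcs1 had 224 and 100 CPM, Msmo1 133 and 59.6 CPM and Fdps 92.4 and 42.0 CPM. Depth differed between the ends, and with ends chosen within depth groups these 3 were under 2-fold, with log2 ratios of 0.99, 0.70 and 0.68. Lipogenesis had a median of 0.10 over 19 genes, 14 above and 5 below 0; without the other-lineage marker cells it was 0.18, against 0.13 over all genes. Scd1, the delta-9 desaturase, had 10068 CPM in high-score and 7010 CPM in low-score cells, and Me1, which supplies NADPH, had 328 and 162 CPM. Acly, which makes cytosolic acetyl-CoA, had 281 and 436 CPM, and Acaca 43.1 and 73.2 CPM. Cd36, a fatty acid translocase, had 131 and 9.49 CPM, with 249 CPM in the other-lineage marker cells and a log2 ratio of 3.93 without them against 3.74 with them.

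Conjugation, bile acid and respiratory genes had smaller ratios. Of 38 measured genes of conjugation and glutathione metabolism 7 were at least 2-fold higher and 0 lower (median 0.35; 5 of 36 without the other-lineage marker cells), among them Gsta3 at 3129 and 1289 CPM; Gstp1, in contrast, had 1176 and 1699 CPM. Bile acid synthesis had a median of -0.01 over 16 genes, and of 0.07 without the other-lineage marker cells: Cyp27a1, of the alternative pathway, had 246 and 102 CPM and Cyp8b1, which makes cholic acid, 176 and 125 CPM, while Cyp7b1 had 179 and 221 CPM. The bile acid importer Slc10a1 had 485 and 637 CPM. None of 72 nuclear genes of oxidative phosphorylation was past 2-fold; 56 were above 0 and the median was 0.18, near that of all genes. Haem synthesis was measured in 5 genes: Blvrb, which reduces biliverdin, had 188 and 51.5 CPM, and Alas1, the first enzyme of the pathway, 27.1 and 55.6 CPM; without the other-lineage marker cells 4 were measured and 0 were 2-fold lower. Of 15 immediate early and heat shock genes 2 were lower, Fos (103 and 213 CPM) and Nr4a1 (60.4 and 125 CPM), with a median of -0.45 (1 without the other-lineage marker cells, median -0.49). With ends chosen within depth groups Fos had a log2 ratio of -1.03, Nr4a1 -1.06 and the list a median of -0.39. In cells thinned to 1000 UMIs these values were -0.54, -0.14 and -0.27. The levels of such genes also report on handling of the cells, and depth and mitochondrial share differed between the ends as given above. The part of handling and of mitochondrial share was not tested.

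**Figure D4:**
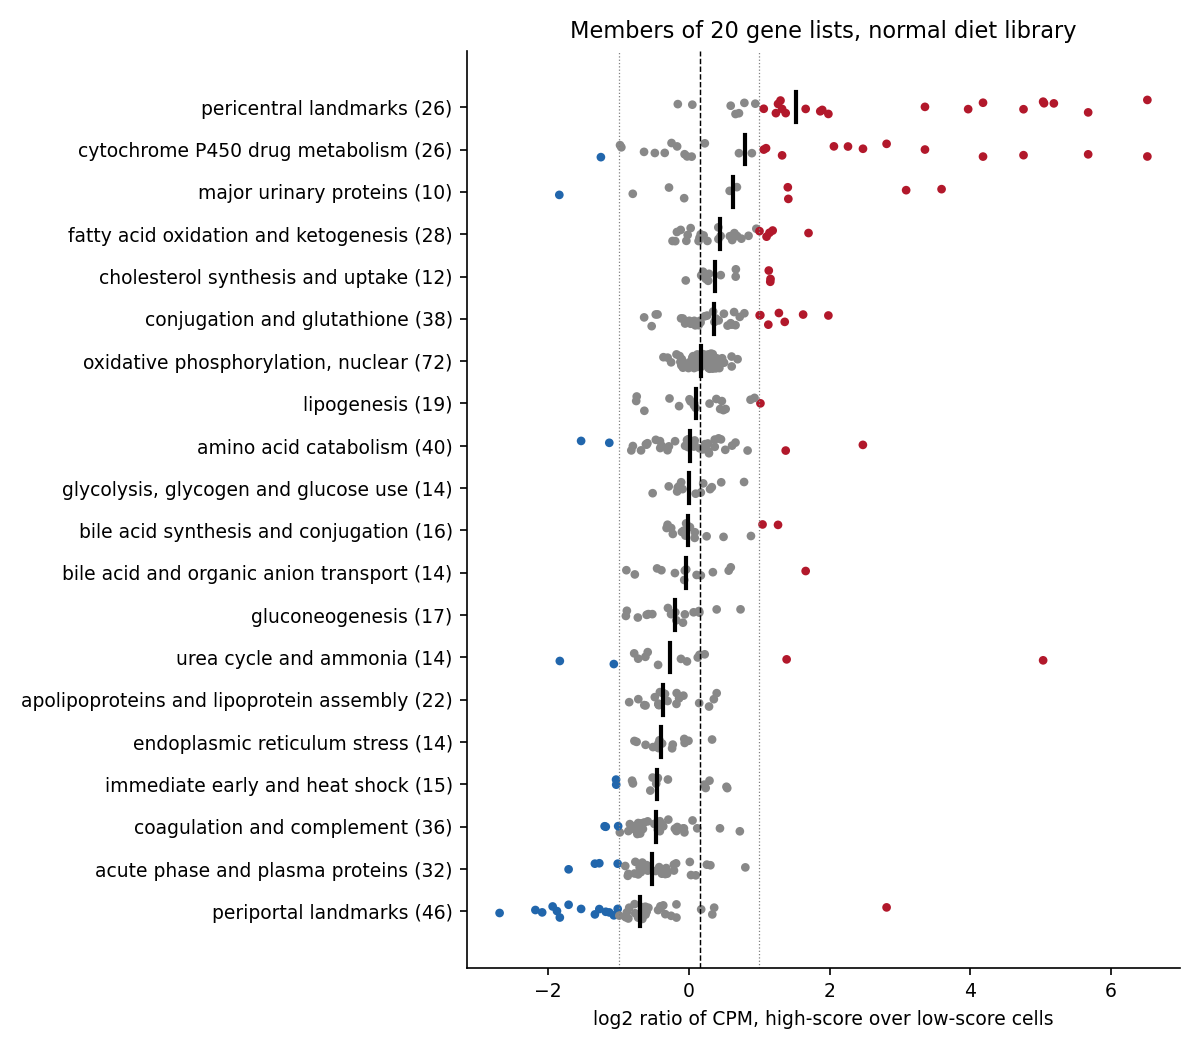
Log2 ratio of CPM in high-score over low-score cells for the measured members of 20 gene lists in the ND library, with the number measured in brackets. Each point is a gene (red at least 2-fold higher, blue at least 2-fold lower, grey between), black bars are list medians, the dashed line is the median of all 2924 genes (0.16) and dotted lines mark 2-fold; list medians run from 1.52 for the pericentral landmarks to -0.69 for the periportal landmarks.

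Few genes were highest in the middle. Of 4047 genes with at least 100 counts over all cells, 9 (0.222%) were at least 1.5-fold higher in middle cells than in both ends, among them Mt1, Mob1a, Srsf3, Ilkap, Baz1b, Tef, Txnip and Pak2. Mt1, a metallothionein, had 94.9 CPM in high-score, 170 CPM in middle and 94.9 CPM in low-score cells, and stood at 639 CPM in other-lineage marker cells. Without the other-lineage marker cells 6 genes (0.148%) met the same rule, among them Rest, Tmem41b, Cebpg, Apol9b and Coq10b, and 1 of the 6 was among the 9. Hamp, which encodes the iron hormone hepcidin and is described as midlobular, had 5541, 6564 and 6381 CPM, with 7844 CPM in bin 8 and 3464 CPM in bin 10. Hamp2 had 156, 97.8 and 82.7 CPM, and Igfbp2 490, 536 and 369 CPM; none of 6 measured midlobular genes was past 2-fold between the ends.

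The same rule was applied within the HFD library (410 cells an end) and the HFD_HDCA library (577 cells an end), where the high-score end had a median score of 10.3 and 10.0 against 3.77 in ND and held 0 and 1 other-lineage marker cells. In HFD, 124 of 2547 genes (4.87%) were at least 2-fold higher in high-score cells and 72 (2.83%) lower. In HFD_HDCA, 144 of 4197 (3.43%) were higher and 83 (1.98%) lower. Of the 94 genes higher in ND, 71 were measured in HFD and 55 of these (77.5%) were 2-fold the same way; of the 124 of HFD, 102 were measured in ND and the same 55 were 53.9% of them. In HFD_HDCA the overlap was 54 genes, 63.5% of 85 measured from the ND list and 57.4% of 94 measured from the HFD_HDCA list. Of the 41 genes lower in ND, 24 were also 2-fold lower in HFD (75.0% of 32 measured, and 36.9% of 65 from the HFD list) and 24 in HFD_HDCA (63.2% of 38, and 37.5% of 64). The libraries share no samples, and with 1 library a diet no difference between them could be tested.

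Most steep genes of ND had like ratios in the other libraries, and a few did not. Cyp2c29 had log2 ratios of 6.52, 6.98 and 5.94 in ND, HFD and HFD_HDCA, Cyp1a2 4.18, 4.59 and 5.12, Csad 2.47, 2.38 and 2.24, and Hpx -1.71, -1.89 and -1.75. Glul had 5.04, 2.22 and 4.53, with 58.9 CPM in the low-score cells of HFD against 9.49 CPM in ND. Some genes of the low-score end were less steep in ND with ends of 30% of the cells, though the periportal landmark list had medians of -0.69, -0.60 and -0.71: Hsd17b6 had -2.18, -7.25 and -4.43, Aldh1b1 -2.70, -7.55 and -5.42, Etnppl -1.53, -5.21 and -4.61, and Gls2 -1.83, -4.06 and -2.75. With ends of 10% of the ND cells these 4 genes had -4.28, -3.78, -2.85 and -3.74, in the order named. Gls2 was then steeper in ND than in HFD_HDCA with its ends of 30%. Since the ND high-score end reached down to a score of 0 and the others to 7.41 and 7.63, the ends of the libraries do not hold the same range of scores, and that cannot be told apart from diet in these values.

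Cyp3a11, a major drug-metabolising P450, stood furthest from the other libraries among named genes with little difference in ND. Its CPM was 5767 (5603 to 5934) in high-score and 3522 (3427 to 3619) in low-score cells of ND, a log2 ratio of 0.71. In HFD it had 335 and 3.86 CPM, a log2 ratio of 6.27 (5.07 to 8.32), and in HFD_HDCA 450 and 10.3 CPM, a log2 ratio of 5.41 (4.85 to 6.11). The ratio in ND was 1.20 with ends of 10% of the cells. In the other-lineage marker cells of ND, which should lack the enzyme, it stood at 1686 CPM.

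Several genes had ratios of opposite sign. Scd1 had a log2 ratio of 0.52 in ND, -0.94 in HFD and -0.93 in HFD_HDCA. Alas1 had -1.01, 0.58 and 0.88 in the same order, and Cyp7b1 -0.30, 0.98 and 1.52. The ND value of Alas1 ranged from -1.16 to -0.22 over the 21 alternatives and kept its sign in all. That of Cyp7b1 kept its sign in 20 of 21 and was 0.08 with ends of 10% of the cells, so its sign in ND is uncertain. Neat1, a nuclear-retained RNA, had 0.55, -1.24 and -0.82. Its ND value was 0.08 with ends chosen within depth groups and ranged from -0.12 to 0.98 over the alternatives, so its sign in ND is uncertain. Selenbp2 had -1.63 in ND and 0.39 in HFD. Mt1 had 0.00, -3.11 and -2.20, and in ND it had no clear sign, with the same sign in 11 of 21 alternatives. Lipogenesis as a list had medians of 0.10, -0.53 and -0.03, gluconeogenesis -0.19, -0.57 and -0.46, and drug-metabolising P450 genes 0.80, 1.61 and 1.40, beside medians of all genes of 0.16, 0.10 and 0.10.

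**Figure D5:**
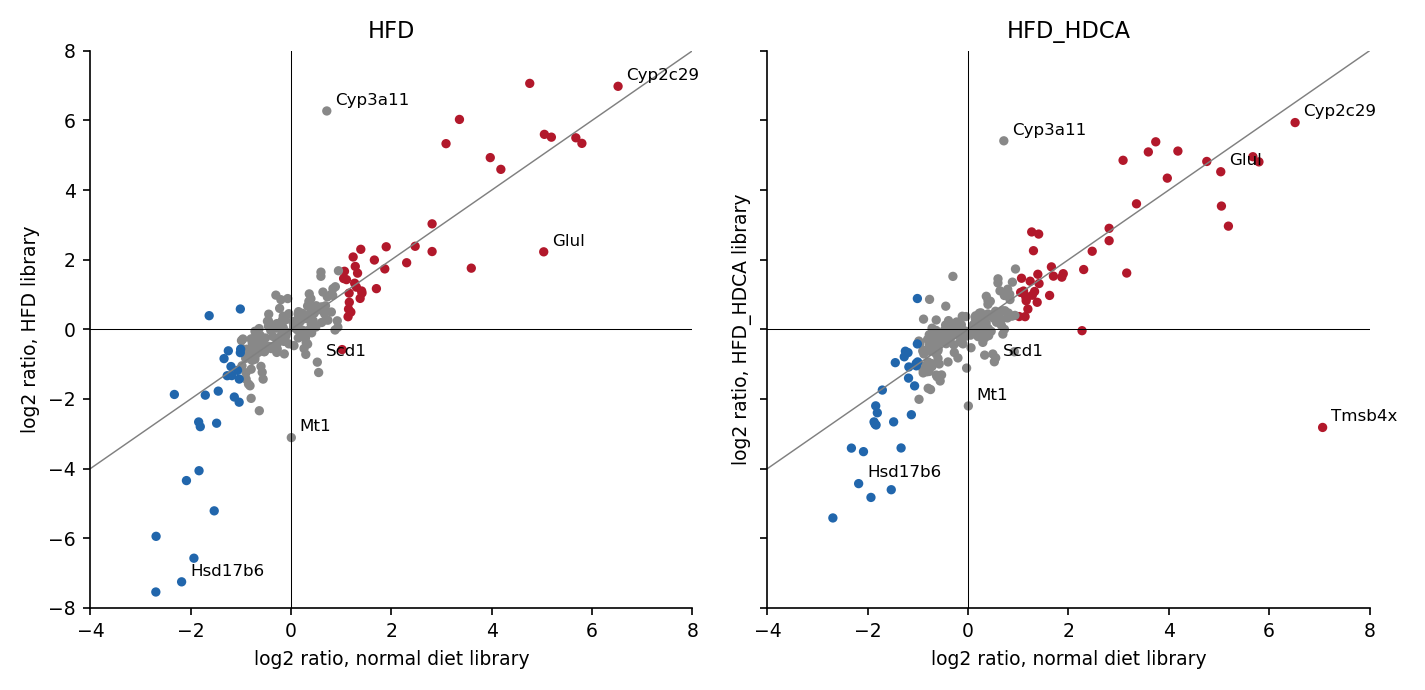
Log2 ratio of CPM in high-score over low-score cells of the ND library (horizontal) against the same ratio in the HFD library (left) and the HFD_HDCA library (right) for the named genes measured in both. Red points are at least 2-fold higher and blue points at least 2-fold lower in ND, grey points lie between, and the diagonal marks equal ratios; Cyp3a11 lies far above it in both panels at 0.71 in ND, Mt1 below it at 0.00, and Tmsb4x at 7.07 in ND and -2.82 in HFD_HDCA.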

How the data were processed

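Single cells of primary hepatocytes were profiled by 10x Genomics 3′ RNA sequencing, 1 library a diet. The deposited values are raw UMI counts per gene and barcode, made with Cell Ranger 5.0.0 per the file headers on mm10 per the submitters' processing notes; the features and barcodes files hold 32285 genes and their order. The deposited matrices hold 4873 to 6290 barcodes a library, with a median of 806 to 1069 UMIs over all barcodes.

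From these counts, with Python 3.11.15, numpy 2.4.6, pandas 2.3.3 and scipy 1.17.1, cells were kept at 500 or more genes and at most 50% mitochondrial counts, scored, and split at 30% from each end. Counts were summed over the cells of a group and divided by the nuclear-encoded counts outside the 8 ordering genes. Log2 ratios had 0.5 added to each count and exact conditional binomial 95% intervals; CPM had exact Poisson 95% intervals. Genes needed 100 counts over both ends, 2-fold called a gene, and a fold against 0 counts used a floor of 3 counts over the end. With 1 library a diet there is no test. Free RNA was not subtracted and doublets were not called. The log2 ratio, its interval and the 2-fold call were checked on simulated Poisson sums per gene. No cells were simulated, so the cell filter, the score and the choice of ends were not checked this way.

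Genes named are the 15 highest and 15 lowest ratios (at least 50 CPM in the higher end, named protein-coding or annotated genes, no ribosomal, mitochondrial or Y-linked genes), up to 4 members a direction of each list, all landmark genes, 10 middle genes and the 5 profiles most like Glul and Pck1. Ctsc, Cyp3a11, Cyp7b1 and the other genes compared between libraries were picked from these after their values were seen. The rule for the cells, the gene lists and the genes examined were chosen with earlier results of these data known. Alternatives changed the count minimum, scaling, cell filter, score, share of cells in an end, and depth; 4 were added after seeing the data. Values of some genes are not reported here.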

Additional observations from a re-analysis of the deposited data

Results flagged for a closer look

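Tmsb4x, an actin-binding peptide abundant outside hepatocytes, had a log2 ratio of high-score to low-score cells of 7.07 in the ND library and of -2.82 in the HFD_HDCA library, past 2-fold in opposite directions. In ND it had 408 CPM in high-score and 2.71 CPM in low-score cells, and 6107 CPM in the other-lineage marker cells, of which 43 lay in the high-score end and 0 in the low-score end. In HFD_HDCA it had 11 counts in high-score and 116 counts in low-score cells, with 1 and 3 other-lineage marker cells in those ends. With 1 library a diet the difference between the libraries was not tested.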

How the results depend on the processing

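The counts of genes (94 higher, 41 lower, 9 highest in middle cells) were recomputed under 21 alternatives, 4 of them added after seeing the data. With at least 20 counts they were 531, 188 and 251, with at least 500 counts 20, 15 and 1, and with every gene of 1 count or more 2884, 788 and 1467. In cells thinned to 1000 UMIs they were 36, 19 and 2, and in cells of at least 1000 genes 54, 20 and 4. Ends within 5 depth groups gave 22 lower and 23 middle genes, and the same without other-lineage marker cells 58 higher and 20 lower. Middle genes numbered 40 with each cell weighted equally, 26 and 65 with ends of 20% and 10% of cells, 93 in cells of at least 200 genes, 27 with high-score cells above 0 only, and 5 without other-lineage marker cells, where the count minimum was applied again. Splitting the cells at their middle left no middle group and gave no value for it. Median-of-ratios scaling moved the median log2 ratio of all genes from 0.16 to 0.00 and the split to 75 higher and 60 lower (55.6% higher, against 69.6%). Without cells of 3 or more UMIs of another lineage, the endothelial marker median was -0.0036, Mrc1 -1.54, Dnase1l3 -2.39 and Maf -0.053. Without other-lineage marker cells Mrc1 was -0.43, Ehd3 -0.056 and Dnase1l3 -2.02, each from 10 or fewer counts an end, and with depth groups as well Mrc1 and Dnase1l3 were both -0.79. The cause of these shifts was not tested. Of 80 named genes past 2-fold, 39 were past it in all 21 alternatives and 76 kept their sign in all. No paired analysis was possible because each diet had 1 library. At this depth Axin2, Lgr5 and Nkd1 had at most 8 counts in the high-score end.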

Other observations

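Some genes of ND that were at least 2-fold higher in high-score cells lay outside the lists. Ang and Rnase4, ribonucleases made from 1 locus, had 382 and 54.2 CPM, and 800 and 173 CPM, in high-score and low-score cells. Paqr9, a membrane receptor-like protein, had a log2 ratio of 2.02 and Tsku, a secreted protein, 2.56. Elovl3, a fatty acid elongase, had 1.68. In all, 50 of the 94 higher genes and 22 of the 41 lower genes were members of a list.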
